A study of Mus musculus with 12 samples.

Results

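The collagen genes were read as every gene whose symbol in the tables is Col followed by a type number, the letter a and a chain number. The pattern found 44 genes of 23951 in cortex of C57BL/6 mice, of which 11 encode fibrillar chains, 8 encode basement membrane chains and 25 encode other collagens. Cortex came from wild type mice (WT), from mice labelled miR-137/+ (here Het, heterozygous) and from mice labelled miR-137 KO (here KO, knockout), that is, 3 genotypes that differ at Mir137. That gene encodes miR-137, a microRNA made mainly in brain. Each genotype had 4 libraries, 12 in all, in a study of this microRNA in the developing brain. The labels give neither the age or sex of the mice nor how the allele was made. They also do not say whether each library had an animal of its own, so p-values reflect the spread of these libraries alone, and that spread may be technical.

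Collagens are secreted or membrane-bound proteins of the extracellular matrix. Their chains carry long stretches with glycine at the third place of each repeat, and chains of 1 type wind into a triple helix. Fibrillar chains form the rope-like fibrils of meninges and vessel walls, and type IV chains form the sheet-like network of basement membranes under endothelium and at the pial surface. Type VI makes beaded filaments around cells, the fibril-associated types decorate fibrils, and a few types span the plasma membrane of the cell that makes them. In brain, most fibrillar and type VI collagen is made by fibroblasts of meninges and vessels, most type IV by vascular cells, and several of the smaller types by neurons.

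Every level is the authors' RPKM (reads per kilobase of transcript, scaled to the mapped reads of the library), 1 value per genotype pooled over its libraries, so no SD can be given and values of single libraries are not analysed here. How deeply each library was sequenced is unknown. RPKM is scaled to transcript length, so levels can be compared between genes. WT and Het levels below come from the table of Het against WT, KO levels from that of KO against WT, and the values of KO against Het from their own table, where they differed from the other tables by a median of 0.685% for Het and 0.467% for KO. A gene rose or fell where its q, the p of the authors' own test adjusted over all genes they tested, was below 0.05 in their deposited table. A log2 fold here is the difference of log2(RPKM + 1) and so understates changes of low genes; plain folds are ratios of RPKM. The authors tested 30 collagen genes in Het against WT, 31 in KO against WT and 30 in KO against Het. The smallest p of their test was 5e-05 in each comparison. It gave a smallest q of 0.00135 in Het against WT, 0.000987 in KO against WT and 0.00517 in KO against Het. Genes that share such a q stand at this floor and are not ranked by it. The comparisons of Het and of KO with WT share the WT libraries.

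In the tissue as a whole, the 10 markers of cortical projection neurons listed for this work summed to 941 RPKM in WT, 863 in Het and 704 in KO, and none was at 0. The 12 striatal projection neuron markers summed to 65.2 RPKM in WT, 483 in Het and 497 in KO, and all 12 rose in both comparisons with WT in the authors' deposited tables. The 14 choroid plexus markers summed to 2094 RPKM in WT, 298 in Het and 93.5 in KO. Oligodendrocyte-lineage markers (12) summed to 1307, 1782 and 1137 RPKM. Mbp alone stood at 912 RPKM in Het and 462 in KO in the comparison of KO with Het. Of these 12, 4 rose and 0 fell in Het (0 also lower at an unadjusted p under 0.05), and 3 rose and 2 fell in KO, in the authors' deposited tables. Of all genes tested 3.95% rose and 5.06% fell in Het, and 6.72% rose and 7.68% fell in KO. Marker levels of cells beside the cortical ones thus moved with genotype, and in bulk RNA fewer cells of a type and less RNA per cell cannot be told apart.

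In WT the collagen genes covered nearly the full range from absent to moderate. Their median was 2.09 RPKM, where that of all genes was 2.07. Of the 44 genes, 5 stood at 10 RPKM or more, 21 between 1 and 10, and 18 under 1. The highest was Col9a3, a fibril-associated chain known from cartilage, at 22.1 RPKM. Col4a1 and Col4a2, the main chains of basement membranes, followed at 19.7 and 15.4 RPKM, then Col6a1 of the beaded filaments at 12.9 and the neuronal membrane collagen Col25a1 at 12.8. Those 5 genes held 51.3% of the summed collagen RPKM in WT. The most abundant fibrillar chain, Col1a2, ranked only the sixth at 8.43 RPKM.

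**Figure D1:**
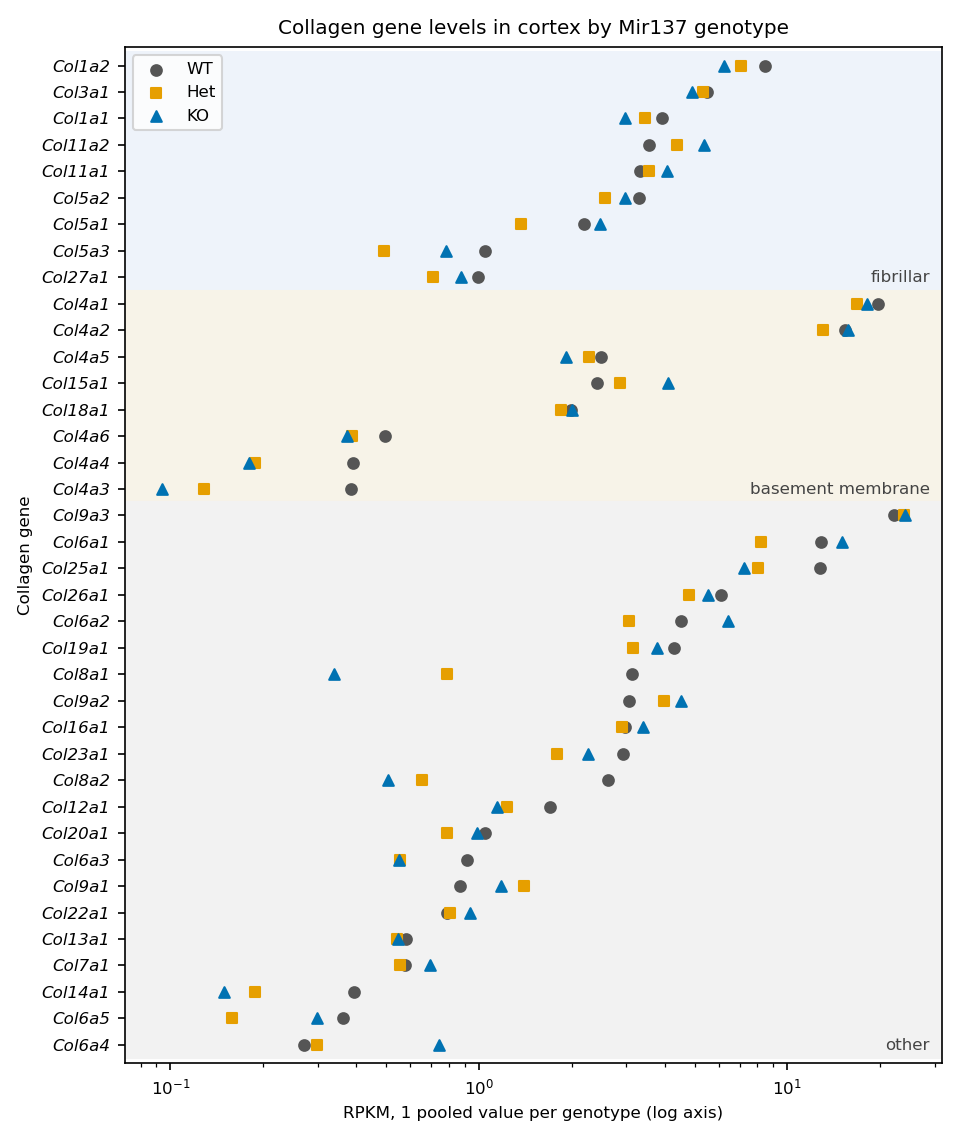
Level of the 38 collagen genes with at least 0.3 RPKM in any genotype, on a log axis of RPKM, with 1 pooled value for WT (circles), Het (squares) and KO (triangles) and shading for fibrillar, basement membrane and other collagens. Col8a1 and Col8a2 stand furthest to the left of their WT value in Het and KO, and Col6a1 and Col6a2 have their lowest value in Het and their highest in KO.

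At least 0.3 RPKM in any genotype was reached by 38 of the 44 genes. The nearest inside that limit were Col6a5, with a highest level of 0.362 RPKM, and Col4a3 at 0.386. The nearest outside were Col6a6 at 0.278 and the cartilage chain Col2a1 at 0.275. The other genes outside were Col10a1, Col17a1, Col24a1 and Col28a1.

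Heterozygous cortex had lower collagen levels than WT. By the authors' deposited table, 10 of the 30 collagen genes tested fell, or 33.3%, where 5.06% of all 14159 genes tested fell. None rose (0 of 30; 2 were higher and 15 lower at an unadjusted p under 0.05), where 3.95% of all genes rose. The 10 were Col8a1 and Col8a2, Col6a1, Col6a2 and Col6a3, Col5a1 and Col5a3, Col19a1, Col23a1 and Col25a1. Over the 38 genes of at least 0.3 RPKM the median log2 fold was -0.22, with 30 negative and 8 positive values, against 0.00 for all genes of that level, and by class it was -0.22 for fibrillar, -0.16 for basement membrane and -0.23 for other collagens. Summed over all 44 genes, collagen RPKM went from 161 in WT to 135 in Het.

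Knockout cortex showed changes in both directions. By the authors' deposited table, 6 of 31 collagen genes fell, or 19.4%, and 5 rose, or 16.1%. Of all 14059 genes tested 7.68% fell and 6.72% rose. Those that fell were Col8a1, Col8a2, Col6a3, Col12a1, Col25a1 and Col1a2. Those that rose were Col6a2, Col6a4, Col9a2, Col11a2 and Col15a1. The median log2 fold of the 38 genes was -0.10, against 0.00 for all genes, and the summed collagen level was 154 RPKM.

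Set directly against Het, KO had higher levels of several chains. By the authors' deposited table, 4 of 30 collagen genes were higher in KO (13.3%, where 0.917% of all 14062 genes tested were) and 1 was lower (3.33%, where 0.953% of all genes were). Higher were Col5a1, Col6a1, Col6a2 and Col6a4, and lower was Col8a1. The median log2 fold of the 38 genes was 0.11, against 0.00 for all genes.

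**Figure D2:**
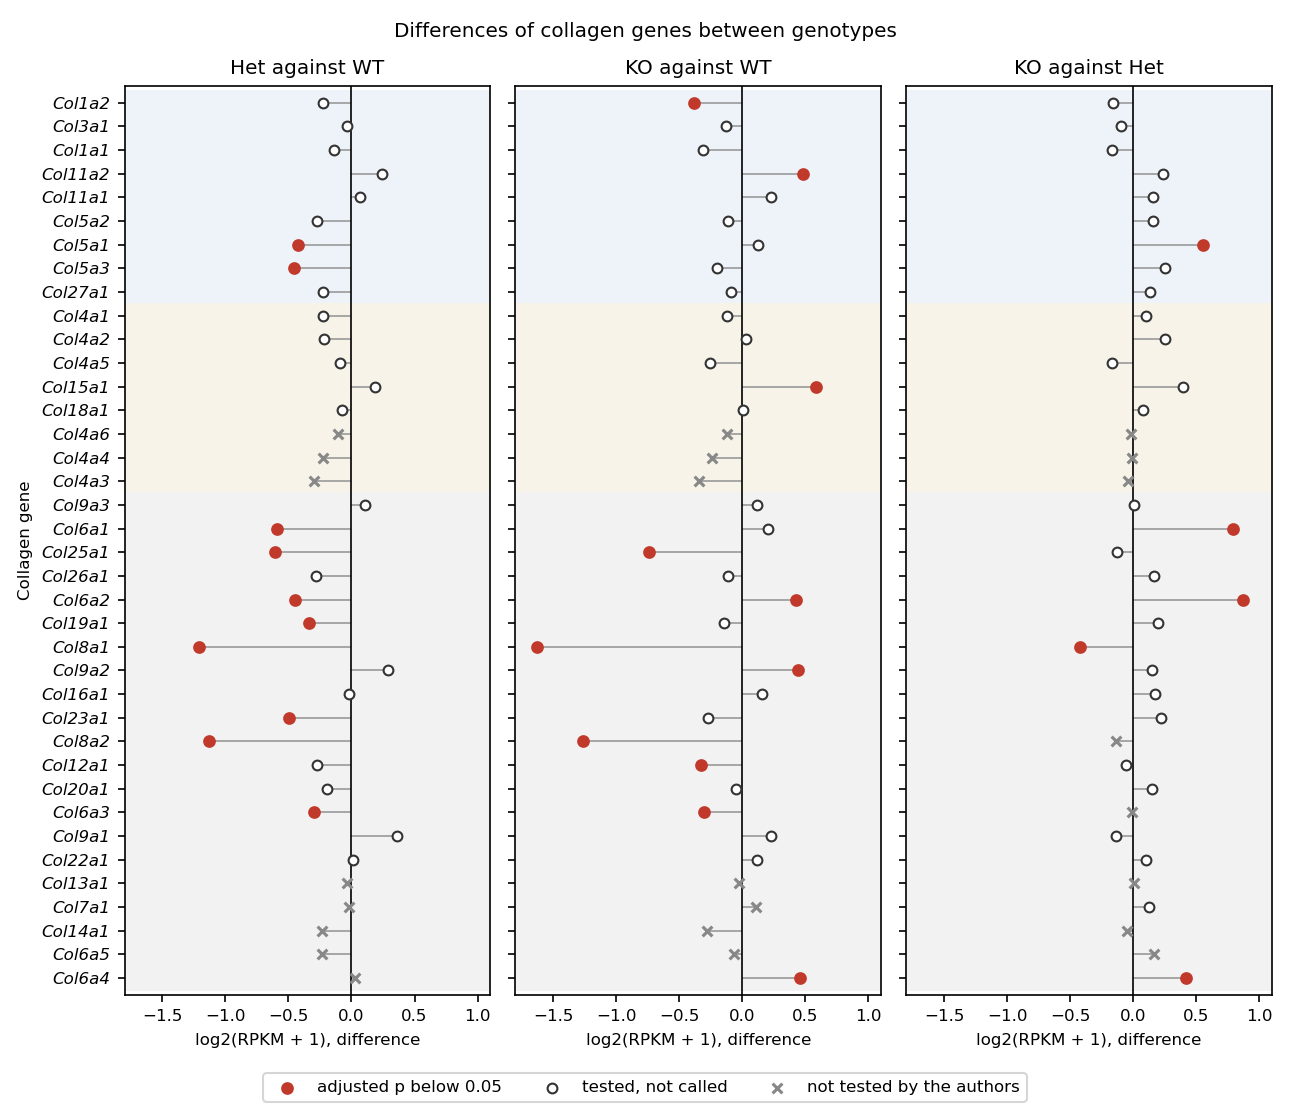
Difference in log2(RPKM + 1) of the 38 collagen genes for Het against WT, KO against WT and KO against Het, with filled points where the authors' adjusted p is below 0.05, open points where it is not, and crosses where the authors made no test. Filled points lie only left of 0 in Het against WT and on both sides in KO against WT, where Col8a1 is the lowest at -1.63.

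Type VIII collagen fell most. It is a short-chain collagen that forms a hexagonal network in the inner lining of the cornea and in vessel walls, and its chains are encoded by Col8a1 and Col8a2. Col8a1 stood at 3.13 RPKM in WT, 0.790 in Het and 0.339 in KO. Het was 3.97-fold lower than WT (q = 0.00135, authors' deposited table) and KO 9.26-fold lower (q = 0.000987, authors' deposited table). KO was also lower than Het, by 2.34-fold (q = 0.0123, authors' deposited table). Col8a1 was thus the only collagen gene whose level fell in each of the 3 comparisons.

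Col8a2 stood at 2.62 RPKM in WT, 0.656 in Het and 0.506 in KO. It was 3.99-fold lower in Het (q = 0.00135, authors' deposited table) and 5.18-fold lower in KO (q = 0.000987, authors' deposited table). The authors did not test it between KO and Het. The ratio of Col8a1 to Col8a2 was 1.20 in both WT and Het and 0.670 in KO. The third short-chain gene, the cartilage collagen Col10a1, stayed under 0.1 RPKM in all genotypes.

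Markers of choroid plexus epithelium, the tissue that secretes cerebrospinal fluid, moved with type VIII. Of 13 tested, 12 fell in Het and 11 in KO in the authors' deposited tables, and 3 of 8 tested were lower in KO than in Het. Of all genes 5.06% fell in Het, 7.68% fell in KO and 0.953% were lower in KO than in Het. Without Ttr, which dominates the list, the other 13 markers summed to 67.8 RPKM in WT, 16.8 in Het and 9.93 in KO, and none was at 0. The part of choroid plexus in the type VIII result was not tested.

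The windows around the start sites of both type VIII genes are shown because these chains fell together in Het and KO. They hold 250 bases before and 50 after the RefSeq start on GRCm38.p6, a later build than the mm9 of the tables, with capitals for the GC box GGGCGG, the CCAAT box CCAAT and the TATA box TATAAA on either strand. Both windows hold 4 GC boxes and neither of the other motifs. They lie at chr16:57754688-57754987 on the minus strand for Col8a1 and at chr4:126286544-126286843 on the plus strand for Col8a2.
Col8a1: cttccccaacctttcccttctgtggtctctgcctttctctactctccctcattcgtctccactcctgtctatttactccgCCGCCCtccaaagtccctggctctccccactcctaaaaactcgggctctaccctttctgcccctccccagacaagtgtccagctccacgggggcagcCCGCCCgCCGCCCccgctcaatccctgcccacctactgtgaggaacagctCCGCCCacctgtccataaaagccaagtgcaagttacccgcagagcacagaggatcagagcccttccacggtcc
Col8a2: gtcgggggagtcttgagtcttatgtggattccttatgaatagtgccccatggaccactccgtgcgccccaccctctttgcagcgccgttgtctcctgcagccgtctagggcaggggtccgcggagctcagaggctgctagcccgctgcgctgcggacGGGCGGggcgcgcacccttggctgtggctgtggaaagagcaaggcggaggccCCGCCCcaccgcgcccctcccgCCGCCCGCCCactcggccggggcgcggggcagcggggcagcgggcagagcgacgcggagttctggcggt

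A GC box was present in 60.5% of 38 such windows of 35 collagen genes and in 35.7% of all 32851 windows in the table. The CCAAT box was present in 34.2% of collagen windows and 37.4% of all, and the TATA box in 13.2% and 13.6%. Collagen windows were richer in G and C, with a median of 59.8% against 52.7%. A match to these letters describes the sequence only. No window was matched for Col1a1, Col2a1, Col4a3, Col5a2, Col9a3, Col12a1, Col14a1, Col22a1 and Col26a1.

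For type VI collagen, 3 chains were higher in KO than in Het. Its filaments are built from an alpha 1, an alpha 2 and an alpha 3 chain, the last encoded by Col6a3 or one of the related genes Col6a4, Col6a5 and Col6a6. Col6a1 stood at 12.9 RPKM in WT, 8.22 in Het and 15.0 in KO. It fell 1.57-fold in Het (q = 0.00135, authors' deposited table), while KO was 1.16-fold higher than WT (q = 0.294, authors' deposited table). KO exceeded Het 1.82-fold (q = 0.00517, authors' deposited table).

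Col6a2 was also lowest in Het, going from 4.54 RPKM in WT to 3.06 in Het and 6.43 in KO. It fell 1.48-fold in Het (q = 0.0200, authors' deposited table) and rose 1.42-fold in KO (q = 0.0126, authors' deposited table). Between KO and Het the difference was 2.10-fold (q = 0.00517, authors' deposited table). Col6a2 was the only collagen gene that fell in Het and rose in KO.

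Col6a3, the partner chain of both, was lower in Het and in KO. It stood at 0.914 RPKM in WT, 0.556 in Het and 0.550 in KO. It fell 1.64-fold in Het (q = 0.0268, authors' deposited table) and 1.66-fold in KO (q = 0.00446, authors' deposited table). The ratio of Col6a1 to Col6a3 was 14.1 in WT, 14.8 in Het and 27.3 in KO.

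Col6a4 was low but rose in KO. Its levels were 0.271 RPKM in WT, 0.299 in Het and 0.741 in KO. KO was 2.73-fold above WT (q = 0.000987, authors' deposited table) and 2.47-fold above Het (q = 0.00517, authors' deposited table). WT and Het were not tested against each other for this gene. Col6a5 was not tested in any comparison and stood at 0.361 RPKM in WT, 0.158 in Het and 0.299 in KO.

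**Figure D3:**
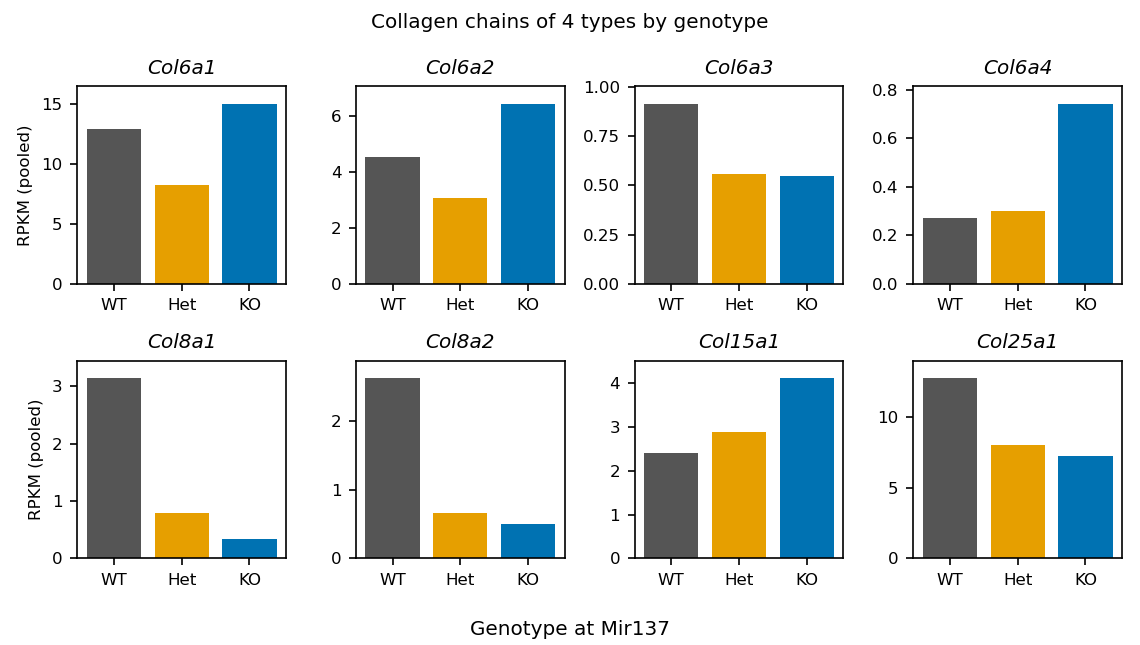
Pooled RPKM in WT, Het and KO for type VI chains (Col6a1 to Col6a4), type VIII chains (Col8a1, Col8a2), Col15a1 and Col25a1, each on its own axis from 0 and without error bars because the libraries are pooled. Col6a1 and Col6a2 are lowest in Het, Col6a3 is lower in both mutants, Col6a4 and Col15a1 are highest in KO, and Col8a1, Col8a2 and Col25a1 are highest in WT.

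Summed type VI RPKM was 19.3 in WT, 12.4 in Het and 23.1 in KO. Decorin (Dcn), a small proteoglycan that binds collagen and marks fibroblasts, also had its lowest level in Het, at 5.94 RPKM against 31.9 in WT and 28.5 in KO. The authors' deposited tables called Dcn lower in Het than in WT (q = 0.00135) and higher in KO than in Het (q = 0.00517). Of 16 meningeal and perivascular fibroblast markers tested, 7 fell in Het, 4 fell in KO and 1, Dcn, was higher in KO than in Het. Of all genes 5.06% fell in Het, 7.68% fell in KO and 0.917% were higher in KO than in Het. Slc13a4, Slc6a20a and Igf2 fell in both and were lowest in KO, at 1.03, 2.97 and 26.7 RPKM. Lum and Slc6a13, like Dcn, were lowest in Het. The median log2 fold of the list between KO and Het was -0.005. The 18 markers found summed to 716 RPKM in WT, 537 in Het and 609 in KO, with none at 0. Nnat dominates this sum, with 527 RPKM in WT and 405 in Het, and was not called in Het (q = 0.0617, authors' deposited table). The part of fibroblasts in the type VI result was not tested.

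The start windows of Col6a1 and Col6a2 are shown because both chains fell in Het and were higher in KO than in Het. The genes lie in the same orientation with the starts of the windows printed 102640 bases apart. The window of Col6a1, at chr10:76725995-76726294 on the minus strand of GRCm38.p6, holds none of the motifs above. The table gives Col6a2 more than 1 start window, and the other, at chr10:76623581-76623880 on the minus strand, holds 1 GC box. The window printed for Col6a2, at chr10:76623355-76623654 on the minus strand, holds 3 GC boxes, of which a pair overlap, in capitals.
Col6a1: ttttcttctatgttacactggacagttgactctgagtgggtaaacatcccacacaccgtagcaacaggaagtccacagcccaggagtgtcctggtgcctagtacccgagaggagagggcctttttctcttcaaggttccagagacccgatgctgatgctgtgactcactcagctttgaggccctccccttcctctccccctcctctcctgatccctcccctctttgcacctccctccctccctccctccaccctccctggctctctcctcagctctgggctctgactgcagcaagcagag
Col6a2: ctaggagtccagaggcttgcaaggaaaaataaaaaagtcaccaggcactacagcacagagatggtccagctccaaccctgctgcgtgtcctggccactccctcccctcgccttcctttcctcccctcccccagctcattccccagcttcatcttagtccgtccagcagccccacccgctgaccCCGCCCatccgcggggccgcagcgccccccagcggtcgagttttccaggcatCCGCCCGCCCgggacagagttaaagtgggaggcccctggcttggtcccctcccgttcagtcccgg

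Among fibrillar collagens, the genes that passed the authors' test were Col5a1 and Col5a3 in Het, Col1a2 and Col11a2 in KO, and Col5a1 between KO and Het. Of 9 fibrillar genes tested, 2 fell and 0 rose in Het, 1 fell and 1 rose in KO, and 1 was higher in KO than in Het, all in the authors' deposited tables. At an unadjusted p under 0.05 the fibrillar genes higher in Het numbered 1. Of all genes 5.06% fell and 3.95% rose in Het, and the fibrillar 1 of 9 in each direction in KO, or 11.1%, is near the 7.68% and 6.72% of all genes. In KO against Het 0.917% of all genes were higher, beside the fibrillar 1 of 9, or 11.1%, which is a single gene. Summed fibrillar RPKM was 32.7 in WT, 29.4 in Het and 31.2 in KO.

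Col1a2, the alpha 2 chain of type I, stood at 8.43 RPKM in WT, 7.08 in Het and 6.23 in KO. It fell 1.35-fold in KO (q = 0.0113, authors' deposited table), while the adjusted p of Het against WT was 0.284 in the authors' deposited table. Its partner Col1a1 stood at 3.92, 3.46 and 2.97 RPKM in WT, Het and KO, with an adjusted p of 0.0718 for KO in the authors' deposited table. The ratio of Col1a2 to Col1a1 stayed between 2.05 and 2.15. Col3a1, which encodes type III collagen and is a ligand of the receptor Gpr56 in the developing cortex, stood at 5.47, 5.33 and 4.91 RPKM and passed no test.

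Type V collagen sits inside type I fibrils and limits their diameter. Col5a1 stood at 2.18 RPKM in WT, 1.37 in Het and 2.48 in KO. It fell 1.59-fold in Het (q = 0.00434, authors' deposited table) and was 1.80-fold higher in KO than in Het (q = 0.00517, authors' deposited table), while KO and WT were not told apart (q = 0.485, authors' deposited table). Col5a3 fell 2.13-fold in Het, from 1.05 to 0.493 RPKM (q = 0.00343, authors' deposited table). Its KO level of 0.781 RPKM lay between, with an adjusted p of 0.181 against WT in the authors' deposited table. Col5a2 had its lowest value in Het too, at 2.57 RPKM against 3.31 in WT and 2.98 in KO, and passed no test.

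Type XI chains, which nucleate thin fibrils in cartilage, had their highest values in KO. Col11a2 stood at 3.56 RPKM in WT, 4.40 in Het and 5.37 in KO, and rose 1.51-fold in KO (q = 0.000987, authors' deposited table). Its adjusted p in Het was 0.221 in the authors' deposited table. Col11a1 followed the same order, at 3.34, 3.55 and 4.09 RPKM, with an adjusted p of 0.163 for KO in the authors' deposited table. Col27a1, a fibrillar collagen of cartilage, had 0.995, 0.708 and 0.874 RPKM and passed no test.

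Of the basement membrane collagens, 1 passed the authors' test in any comparison. None of 5 tested fell or rose in Het (0 of 5; 2 were lower at an unadjusted p under 0.05), 1 rose in KO and 0 fell, and 0 differed between KO and Het (2 were higher at an unadjusted p under 0.05), all by the authors' test. With 5 genes tested, these counts are not set apart from the shares of all genes (3.95% higher and 5.06% lower in Het, 6.72% higher and 7.68% lower in KO). Between KO and Het those shares were 0.917% higher and 0.953% lower. Summed RPKM of the 8 genes was 43.2 in WT, 37.5 in Het and 42.5 in KO. Col4a1, in which mutations cause disease of small brain vessels, stood at 19.7 RPKM in WT, 16.8 in Het and 18.1 in KO. Col4a2, which joins it in the same trimer, stood at 15.4, 13 and 15.7 RPKM. Adjusted p-values for Het against WT were 0.197 and 0.220 in the authors' deposited table.

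The chains Col4a1 and Col4a2 are encoded head to head, and their starts lie 21 bases apart on opposite strands in the table. Their windows share the 78 bases at chr8:11312777-11312854 of GRCm38.p6, printed on the plus strand with 1 GC box in capitals. The library kit does not mark strand, so where both transcripts cover the same bases between these starts, strand cannot tell their reads apart.
Col4a1 and Col4a2: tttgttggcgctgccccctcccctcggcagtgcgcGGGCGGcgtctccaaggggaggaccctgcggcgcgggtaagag

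Col15a1 was the basement membrane collagen that rose. It encodes a proteoglycan collagen of vessel and muscle basement membranes and stood at 2.41 RPKM in WT, 2.87 in Het and 4.10 in KO. KO was 1.70-fold above WT (q = 0.000987, authors' deposited table). Against Het, KO was 1.42-fold higher, which did not pass (q = 0.0926, authors' deposited table). Col18a1, its closest relative and the source of the fragment endostatin, had 1.99, 1.84 and 2.00 RPKM and passed no test. Col4a5 stood at 2.49, 2.27 and 1.91 RPKM, with an adjusted p of 0.125 for KO in the authors' deposited table.

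Markers of vascular cells had no single direction. Of 11 pericyte and smooth muscle markers tested, 1 rose in Het and 3 rose in KO, and none fell in either (0 also at an unadjusted p under 0.05), in the authors' deposited tables. The 14 listed summed to 89.3 RPKM in WT, 109 in Het and 103 in KO. Of 14 endothelial markers 1 rose and 5 fell in Het, and 1 rose and 4 fell in KO, with sums of 169, 159 and 161 RPKM. Of all genes 3.95% rose and 5.06% fell in Het, and 6.72% rose and 7.68% fell in KO. The single rises in these lists are not set apart from those shares. No marker of either list was at 0, and the part of these cells in the basement membrane values was not tested.

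Among membrane-spanning collagens the most abundant one fell in both mutants. Col25a1 is made by neurons, and its shed ectodomain is found in amyloid plaques. It stood at 12.8 RPKM in WT, 8.01 in Het and 7.26 in KO. The fall was 1.59-fold in Het (q = 0.00135, authors' deposited table) and 1.76-fold in KO (q = 0.000987, authors' deposited table), and KO and Het were not told apart (q = 0.875, authors' deposited table). Col23a1 fell 1.63-fold in Het, from 2.93 to 1.79 RPKM (q = 0.00343, authors' deposited table). In KO it stood at 2.25 RPKM (q = 0.110, authors' deposited table). Summed membrane-spanning collagen was 16.3 RPKM in WT, 10.4 in Het and 10.2 in KO. Of the 10 cortical projection neuron markers, all tested, 2 rose and 1 fell in Het and 1 rose and 2 fell in KO in the authors' deposited tables. Of all genes 3.95% rose and 5.06% fell in Het, and 6.72% rose and 7.68% fell in KO. The part of these neurons in the Col25a1 values was not tested.

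Fibril-associated collagens held both falls and rises. Col12a1, which coats type I fibrils, stood at 1.70 RPKM in WT, 1.23 in Het and 1.15 in KO. It fell 1.48-fold in KO (q = 0.00560, authors' deposited table) and just missed the threshold in Het (q = 0.0528, authors' deposited table). Col19a1, which subsets of interneurons make, fell 1.35-fold in Het, from 4.28 to 3.17 RPKM (q = 0.0165, authors' deposited table). Its KO level was 3.78 RPKM (q = 0.411, authors' deposited table).

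Type IX chains, which in cartilage sit on type II fibrils, had higher values in both mutants. Col9a2 stood at 3.07 RPKM in WT, 3.97 in Het and 4.53 in KO, and rose 1.47-fold in KO (q = 0.0229, authors' deposited table). Col9a1 had 0.866, 1.4 and 1.18 RPKM, with an adjusted p of 0.128 for Het and 0.270 for KO in the authors' deposited tables. Col9a3 had 22.1, 23.8 and 24.0 RPKM and passed no test. Type II collagen itself, Col2a1, stayed under 0.3 RPKM. Of 4 bone and cartilage markers tested, 1 rose (Acan) and 1 fell (Runx2) in Het and none changed in KO in the authors' deposited tables (1 was lower at an unadjusted p under 0.05). With 4 genes tested, these counts are not set apart from the shares of all genes (3.95% higher and 5.06% lower in Het, 6.72% higher and 7.68% lower in KO). The 10 listed summed to 9.16 RPKM in WT, 7.35 in Het and 7.64 in KO, and 1 of them was at 0 in WT.

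**Figure D4:**
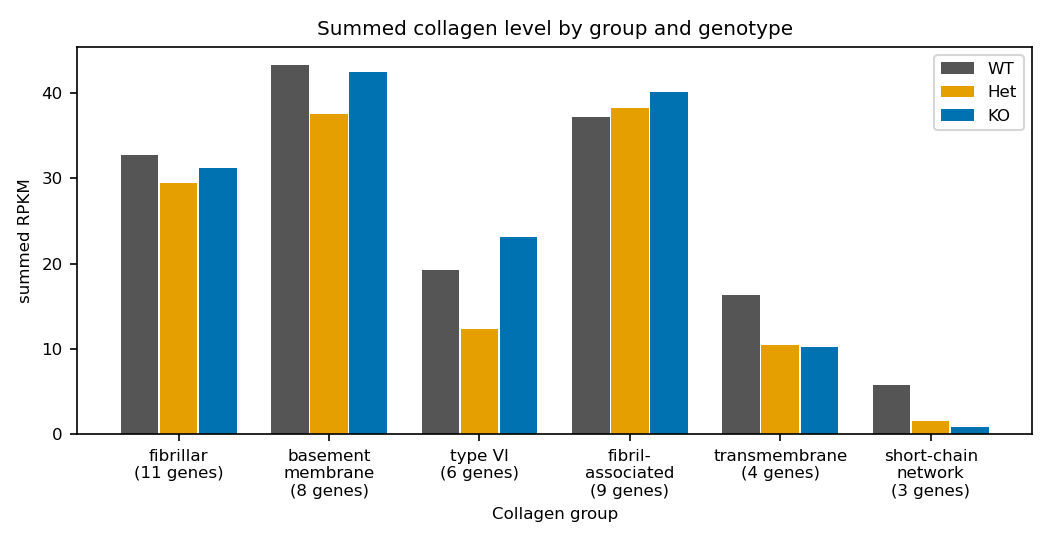
Summed RPKM of the collagen genes of the named structural groups in WT, Het and KO, with the number of genes under each group. Error bars are absent because the libraries are pooled. Col7a1, Col26a1 and Col28a1, which were placed in none of these groups, are not drawn. The short-chain group falls from 5.79 in WT to 1.52 in Het and 0.902 in KO, and the fibril-associated group is similar in all genotypes at 37.2, 38.3 and 40.2.

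The remaining collagens passed no test. Col26a1 stood at 6.07 RPKM in WT, 4.81 in Het and 5.53 in KO. Col16a1 and Col22a1, both fibril-associated, had 2.97, 2.92 and 3.42 RPKM and 0.789, 0.806 and 0.934 RPKM. Col20a1 had 1.05, 0.789 and 0.983 RPKM. The authors did not test 8 of the 38 genes in Het against WT and 7 in KO against WT. Untested in both were the type IV chains Col4a3, Col4a4 and Col4a6, the anchoring-fibril collagen Col7a1, the membrane collagen Col13a1, Col14a1 and Col6a5. The largest ratio among them was that of Col4a3, at 0.385 RPKM in WT, 0.128 in Het and 0.0936 in KO.

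Genes that make, bind and degrade collagen were read from 5 lists. Of 25 processing enzymes and chaperones tested, 2 rose and 4 fell in Het and 5 fell in KO, in the authors' deposited tables. None rose in KO (2 were higher at an unadjusted p under 0.05). Of all genes 3.95% rose and 5.06% fell in Het, and 6.72% rose and 7.68% fell in KO. The median log2 fold of the list was -0.01 in Het and 0.00 in KO. Pcolce, which speeds removal of the procollagen C-propeptide, fell from 5.96 RPKM in WT to 3.0 in Het and 2.62 in KO (q = 0.00135 and 0.000987, authors' deposited tables). The prolyl 3-hydroxylase gene Leprel1 fell from 1.74 to 0.715 and 0.784 RPKM (q = 0.0153 and 0.00675, authors' deposited tables). The cross-linking enzymes Lox and Loxl1 fell in KO, from 1.71 to 0.941 and from 2.65 to 1.41 RPKM (q = 0.00616 and 0.000987, authors' deposited table). Serpinh1, the collagen chaperone, rose in Het from 18.3 to 24.5 RPKM (q = 0.0171, authors' deposited table), as did the N-propeptide protease gene Adamts3, from 8.69 to 11.6 (q = 0.00434, authors' deposited table).

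No collagen receptor gene passed the authors' test in any comparison (0 of 7 tested; at an unadjusted p under 0.05, 2 were higher in Het and 1 in KO). They include the integrin subunit Itgb1 at 37.9, 44.2 and 43.1 RPKM in WT, Het and KO, Gpr56 at 31.6, 36.9 and 38.6, and the receptor kinase Ddr1 at 16.1, 17.1 and 16.3. The receptors' median log2 fold was 0.06 in Het and 0.03 in KO. With 7 receptor genes tested, the 0 calls are not set apart from the shares of all genes. Those shares were 3.95% higher and 5.06% lower in Het, and 6.72% higher and 7.68% lower in KO. Between KO and Het they were 0.917% higher and 0.953% lower. Of 10 proteases and inhibitors tested, 1 fell in Het and 1 rose in KO, with list medians of -0.18 and -0.25; both counts are near the shares of all genes, of which 5.06% fell in Het and 6.72% rose in KO. These were the inhibitor Timp2, at 84.1 against 134 RPKM (q = 0.00135, authors' deposited table), and the membrane protease Mmp15, at 10.8 against 8.35 (q = 0.0464, authors' deposited table).

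Non-collagen basement membrane genes fell in 3 of 14 tested in Het, and in KO 1 rose and 1 fell, in the authors' deposited tables, with list medians of -0.09 and -0.07. Of all genes 5.06% fell in Het, and the counts in KO are near the 6.72% of all genes that rose and the 7.68% that fell. The heparan sulfate proteoglycan gene Hspg2 fell in Het from 2.03 to 1.39 RPKM (q = 0.00244, authors' deposited table), Sparc from 217 to 167 (q = 0.0171, authors' deposited table) and the laminin chain Lama5 from 1.42 to 1.00 (q = 0.0417, authors' deposited table). In KO the laminin chain Lamc1 fell from 9.29 to 7.20 RPKM (q = 0.0300, authors' deposited table) and Lama4 rose from 2.15 to 2.94 (q = 0.0390, authors' deposited table).

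Small proteoglycans and fibril partners fell in 6 of 13 tested in Het and 2 in KO, and 2 were higher in KO than in Het, in the authors' deposited tables. Their median log2 fold was -0.29 in Het, -0.18 in KO and 0.25 between KO and Het. Dcn, Lum and Ogn also belong to the meningeal and perivascular fibroblast list, so the counts of these lists overlap. Of all genes 5.06% fell in Het, 7.68% fell in KO and 0.917% were higher in KO than in Het. Elastin (Eln) fell in Het from 16.8 to 9.08 RPKM (q = 0.00135, authors' deposited table) and stood at 16.9 in KO against 9.15 in Het (q = 0.00517, authors' deposited table). Eln and Dcn thus had their lowest value in Het, as did Col5a1, Col6a1 and Col6a2. The proteoglycan gene Prelp and the microfibril gene Fbn1 fell in both: Prelp went from 4.23 RPKM to 1.77 in Het and 1.41 in KO (q = 0.00135 and 0.000987, authors' deposited tables), and Fbn1 from 2.03 to 0.988 and 1.5 (q = 0.00135 and 0.0448, authors' deposited tables).

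Collagen messages were also searched for matches to miR-137, since the genotypes differ at its gene. The mature strand is given 5′ to 3′ from RefSeq (chr3:118433901-118433923, plus strand, GRCm38.p6) with its seed, bases 2 to 8, in capitals.
miR-137-3p: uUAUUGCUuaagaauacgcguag

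In the longest 3′ UTR that GENCODE M21 gives each gene, 6 of the 38 collagen genes (15.8%) held a match to seed bases 2 to 8, or to bases 2 to 7 followed by A. Of 13812 genes of at least 0.3 RPKM in Het or WT, 15.7% did, with median 3′ UTR lengths of 1080 and 1173 bases. The 6 were Col4a3, Col4a5, Col5a1, Col8a1, Col11a1 and Col19a1. Col8a1, the gene that fell most, held 3 of them, shown with the match in capitals and named by the distance of its first base from the stop codon. The single matches of Col5a1 and Col19a1, which fell in Het, are shown for comparison. Not shown are 2 matches in Col11a1 and 1 each in Col4a3 and Col4a5, genes called in no comparison. That of Col4a3 was the only match of the 38 genes to bases 2 to 8 followed by A. Whether any of these is used in cortex, or has a part in the falls of Col8a1, Col5a1 and Col19a1, was not tested.
Col8a1, base 841: aacatagcctaAGCAATAtaaacaaatctt
Col8a1, base 1212: atgttgcttccAGCAATAgggactacggtt
Col8a1, base 1487: tgtggaatgagAGCAATAgaatgtattcta
Col5a1, base 693: cacaagaatgtGCAATAAtttggaaatttg
Col19a1, base 563: gaaaaaaatatGCAATAAgagattcgcttc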

How the data were processed

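RNA from cortex was sequenced in 12 libraries, 4 for each of the genotypes WT, Het and KO; the kit was TruSeq RNA v2, with paired-end reads, per the labels' protocols. Cuffdiff 2.2.1, TopHat2 2.0.13, CASAVA 1.4 and the build mm9 are named in the submitters' processing notes, without the role of each; the gene annotation is not given in the sources used here. The authors deposited 3 pairwise tables with 1 RPKM value per genotype, pooled over its libraries, per the file headers. They also hold the authors' p-value and q-value (adjusted p) per gene, per the file headers. The q-values match a Benjamini-Hochberg adjustment across all genes with a p below 1 within 0.0001, so genes with a p of 1 were taken as untested. The deposited log2 fold column was not used, and 0 columns of values were without a genotype. How deeply each library was sequenced is unknown, and pooled values allow no test or interval here.

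Collagen genes were found by symbol. All those of at least 0.3 RPKM in any genotype are named, and of other lists up to 4 called members by smallest adjusted p. The members and lists were chosen with earlier results of these data known. Log2 folds used a pseudocount of 1. Start-site windows and miR-137 came from RefSeq tables on GRCm38.p6, and 3′ UTRs from GENCODE M21 on GRCm38, joined by symbol (44 of 44 collagen genes had a 3′ UTR). Counting of calls was tested on simulated data. Work used Python 3.11.15, numpy 2.4.6, pandas 2.3.3 and matplotlib 3.10.9.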

Additional observations from a re-analysis of the deposited data

Results flagged for a closer look

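Het and KO differed from each other, by the authors' own test of KO against Het, for 5 collagen genes. On the log2(RPKM + 1) scale KO exceeded Het by 0.55 for Col5a1, by 0.79 for Col6a1, by 0.87 for Col6a2 and by 0.42 for Col6a4. For Col8a1 the difference was -0.42, with KO the lower. The first 4 share an adjusted p of 0.00517 in the authors' deposited table, the smallest that their test gave there, and Col8a1 has 0.0123. The type VI chains Col6a1 and Col6a2 and the type V chain Col5a1 had their lowest level in Het, and Col8a1 had its highest in WT and its lowest in KO.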

How the results depend on the processing

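No paired analysis was possible because the deposited values pool the libraries of each genotype, and for the same reason no library could be left out. Collagen genes lower in Het against WT numbered 10, and 4 with an absolute log2 fold of at least 0.5. In KO against WT, those higher numbered 5, against 3 at q below 0.01 and 1 with the minimum fold; those lower numbered 6, against 3 with the minimum fold. In KO against Het the single lower gene, Col8a1, was lost at q below 0.01, with the minimum fold and with at least 1 RPKM in either genotype (0 each). The median log2 fold in Het against WT was -0.22, and -0.34 with a pseudocount of 0.01. The other 37 checks of counts and medians (other pseudocounts, minimum levels, adjustment over the 3 tables together, recentred folds) moved a count by at most 1.5 times or a median by at most 0.1. For single genes, 200 of 228 log2 folds moved by at most 0.1 or kept their sign where called, and 28, all with a pseudocount of 0.1, moved further without being called. Recentring moved the median of all genes by 0.01 or less. Depth is unknown, and the 7 collagen genes of at least 0.3 RPKM that the authors tested in neither comparison with WT were all under 1 RPKM.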
